A study of Mus musculus with 6 samples.

Results

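The transcripts of the mouse mitochondrial genome were examined in blood monocytes of thrombocytopenic and control mice. The members were all 37 gene symbols of the count files that begin with mt-, of 56832 symbols in all. They comprise 2 ribosomal RNAs (rRNAs), 13 mRNAs and 22 transfer RNAs (tRNAs), and the 3 classes were described apart. RNA sequencing was done on polyadenylated RNA of 6 libraries. The 3 thrombocytopenic libraries came from mice of the genotype PF4cre-iDTR, in which Cre under the promoter of Pf4, a gene of the megakaryocyte lineage, switches on a receptor for diphtheria toxin. The 3 control libraries came from wild-type mice. Diphtheria toxin is given as the treatment of both groups, so genotype and platelet state cannot be told apart. The labels name neither strain nor age nor pooling. Whether each library stands for its own animal is not stated either, and the p-values speak only to the spread among the libraries sequenced, part of which may be technical. Every library is named below by its group and number.

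The mitochondrial genome is a small circle, present in many copies per cell, that encodes core subunits of the respiratory chain and of ATP synthase together with the rRNAs and tRNAs that translate them. Both strands, called heavy and light, are transcribed into long precursors by the polymerase Polrmt with its partners Tfam and Tfb2m. Nucleases cut out the tRNAs that lie between the other genes, and this frees the mRNAs and rRNAs. The mRNAs then receive poly(A) tails from the polymerase Mtpap, while the rRNAs carry at most short tails. Libraries made with oligo-dT beads, as here, therefore capture these classes unequally, and a level is what was captured, not the content of the cell.

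The files summed to between 24842319 and 37552029 counts per library. Monocyte genes were abundant in both groups, with Csf1r, the receptor for the growth factor of these cells, at 1477 counts per 1000000 (CPM) in the thrombocytopenic and 1231 CPM in the control group. Macrophage genes were abundant as well. The monocyte markers, with 20 of 20 detected, summed to 22698 to 22996 CPM in the thrombocytopenic and 21056 to 21497 CPM in the control libraries, and the macrophage markers, with 14 of 15 detected and Vsig4 at 0, to 10361 to 10634 and 12630 to 12793 CPM. Of 15 T and natural killer cell markers, 6 had no count in any library, Cd3e and Nkg7 among them. In such bulk RNA, fewer cells of a type and less RNA per cell cannot be told apart.

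A long stretch of the mitochondrial genome was empty in every library. Of the 11 members that lie between mt-Co1 and mt-Nd4 in the order of the genome, 6 mRNAs and 5 tRNAs, 9 had no count at all, and the 11 together had 6 counts over the 6 libraries. The mRNAs in this stretch were mt-Co2 (1 count, in control 1), mt-Atp8, mt-Atp6, mt-Co3 and mt-Nd4l (0 counts each) and mt-Nd3 (5 counts). They encode subunits of cytochrome c oxidase, of ATP synthase and of complex I. Cells with a working respiratory chain use all of them, so a 0 here is a listed value and no evidence of absence. A count of 0 allowed up to 3 counts, or 0.0799 CPM in the deepest library, thrombocytopenic 1, and 0.121 CPM in the shallowest, control 1. PCR copies of a molecule are not independent, and the limits reflect counting error alone.

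All mRNAs of the empty stretch but mt-Atp8 coincided with sequence that the nuclear genome holds in near-identical copy. Windows of 50 bases of each member were searched, on both strands, in all transcripts of nuclear genes in the GENCODE M21 annotation (GRCm38); the build used for the files is not given in the sources used here. For mt-Co2, mt-Atp6, mt-Co3, mt-Nd3 and mt-Nd4l, between 98.0% and 100% of the windows recurred in nuclear transcripts, each time mainly in an unprocessed pseudogene on chromosome 1. In mt-Co1 the part matched by chromosome 1 transcripts ran from base 1067 to the last base, 1545, and in mt-Nd4 from base 1 to base 876 of 1378. The chromosome 1 matches thus began within mt-Co1 and ended within mt-Nd4, which flank the empty genes. Transcripts of other chromosomes also matched 8.2% of the windows of mt-Nd2, 7.6% of those of mt-Nd5 and further windows of mt-Co1, of which 765 of 1496 matched in all and 430 on chromosome 1. The 7 chromosome 1 copies together had 11 counts. mt-Atp8 and the 5 tRNAs of the stretch had no window in an annotated nuclear transcript, and the genome itself was not searched. How reads with several matches were treated is not given in the sources used here, and the part of the shared sequence in the empty values was not tested. The first 90 bases of mt-Atp6 and of its copy, Gm10925, show what such a pair looks like, without any mismatch in this stretch or over the 678 aligned bases.
mt-Atp6: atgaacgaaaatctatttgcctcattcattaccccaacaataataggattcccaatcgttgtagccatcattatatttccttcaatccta
Gm10925: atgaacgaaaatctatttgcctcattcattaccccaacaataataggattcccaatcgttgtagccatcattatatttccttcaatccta

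mt-Co1 and its copy Gm29216 differed at 1 of 483 aligned bases, A1066T, counted from the first base of mt-Co1, with the base of mt-Co1 first. This base, in capitals in the stretch from base 1063 to base 1152, stands just before the part matched on chromosome 1 begins.
mt-Co1: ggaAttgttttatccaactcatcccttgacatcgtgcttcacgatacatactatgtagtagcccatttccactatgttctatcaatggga
Gm29216: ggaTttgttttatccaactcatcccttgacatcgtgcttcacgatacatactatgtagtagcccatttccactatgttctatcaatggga

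**Figure D1:**
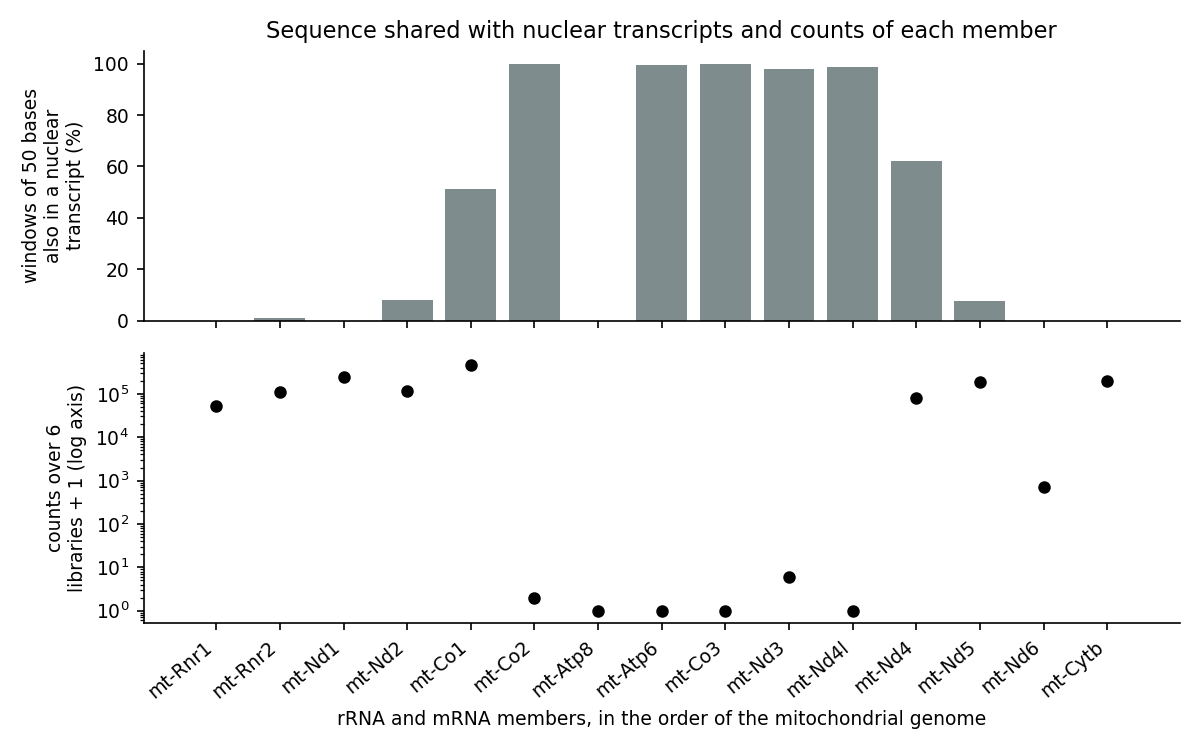
The rRNA and mRNA members in the order of the mitochondrial genome, with the percent of their 50-base windows that recur in a nuclear transcript (upper bars) and their counts summed over the 6 libraries plus 1 (lower points, log axis). The 5 members with 98.0% or more of their windows shared had at most 5 counts; mt-Atp8 had 0 counts with 0 windows shared.

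In the remaining genome the rRNAs and mRNAs were well covered and the tRNAs were not. Both rRNAs, 7 mRNAs and 1 tRNA had enough counts to be tested (edgeR's filter with a minimum count of 10); 27 members did not. Of all 12488 genes tested, 45.1% changed at an adjusted p under 0.05 by edgeR's quasi-likelihood test, 22.4% higher and 22.7% lower in the thrombocytopenic group, and the median log2 fold change was -0.00079. The libraries of both groups did not overlap in level for 51.3% of these genes, 25.2% above and 26.1% below the control group. A fold change is always thrombocytopenic against control.

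Both rRNAs were strongly lower in the thrombocytopenic libraries, while the mRNAs cut from the same heavy-strand transcripts were not. mt-Rnr1, the RNA of the small mitochondrial ribosomal subunit, stood at 87.3, 89.5 and 88.7 CPM (scaled by edgeR's TMM factors) in thrombocytopenic 1 to 3 and at 467, 455 and 496 CPM in control 1 to 3. The groups lay far apart and each was tight. mt-Rnr1 fell by 2.42 on the log2 scale (SE 0.031; 5.34-fold; edgeR adjusted p = 5.57e-50). mt-Rnr2, the RNA of the large subunit, stood at 160.2, 165 and 169 CPM against 1009.7, 973 and 1069.9 CPM, again without overlap. Its log2 fold change was -2.63 (SE 0.031; 6.17-fold; edgeR adjusted p = 5.11e-42). Together the rRNAs made up 0.0253% ± 0.00062 of all counts in the thrombocytopenic libraries and 0.149% ± 0.00695 in the control libraries (mean ± SD, n = 3 each), every thrombocytopenic library lying below every control library (exact permutation test, two-sided, p = 0.1, the smallest that 3 against 3 libraries allow; adjusted p = 0.4 over the 4 shares compared).

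Among genes at least as abundant this difference was an extreme. Of 259 genes tested with a mean level at least that of mt-Rnr2, 0 had a larger change in either direction. Of 670 with a mean level at least that of mt-Rnr1, 1 had a larger change, and this was mt-Rnr2. By p-value mt-Rnr1 ranked 2 and mt-Rnr2 10 among all genes tested. By log2 fold change, counted from the lowest, mt-Rnr2 ranked 35 and mt-Rnr1 47, so less abundant genes had larger falls.

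**Figure D2:**
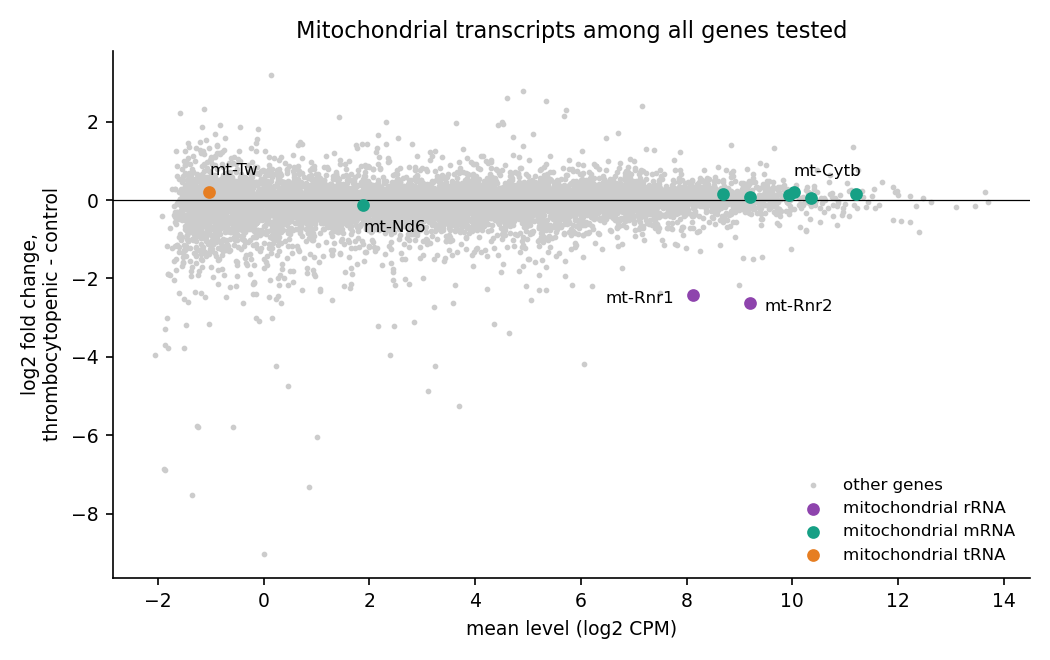
Log2 fold change, thrombocytopenic minus control, against mean level (log2 CPM) of the 12488 genes tested, with the mitochondrial members in color by class. mt-Rnr1 and mt-Rnr2 lie at -2.42 and -2.63, below the other abundant genes, while 6 of the 7 mRNAs lie just above 0.

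The rRNAs also changed unequally. mt-Rnr2 had 2.16, 2.14 and 2.16 counts per count of mt-Rnr1 in control 1 to 3, and 1.83, 1.84 and 1.91 in thrombocytopenic 1 to 3. The log2 ratio was lower by 0.21, and the groups did not overlap (difference -0.21; exact permutation p = 0.1, adjusted p = 0.14 over the 7 ratios compared). A ratio of this kind does not depend on how libraries are scaled. It shows unequal change, not that either rRNA held still.

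The difference between the classes themselves was as plain within each library. For each mRNA count there were 0.212, 0.242 and 0.245 rRNA counts in control 1 to 3. In thrombocytopenic 1 to 3 there were 0.0358, 0.0353 and 0.0377. The log2 ratio of rRNA to mRNA differed by -2.68, a 6.42-fold difference, without overlap (exact permutation p = 0.1, adjusted p = 0.14). With mt-Rnr1 or mt-Rnr2 alone, or with each gene divided by its length, the direction was the same.

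**Figure D3:**
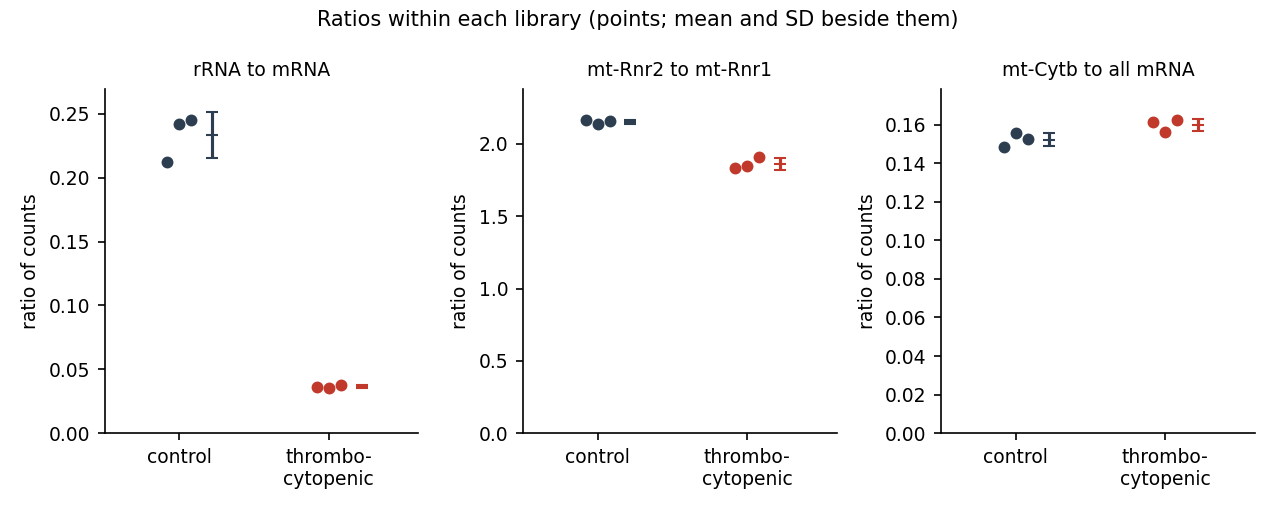
Ratios of counts within each library for the control (dark) and thrombocytopenic (red) group, with points for libraries and the mean and SD (n = 3) beside them; all axes start at 0. The rRNA to mRNA ratio lies between 0.212 and 0.245 in the control libraries and between 0.0353 and 0.0377 in the thrombocytopenic libraries, while the mt-Cytb share of the mRNAs differs only slightly.

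Both rRNA genes lie near the start of the heavy-strand transcript, ahead of all the mRNAs. They have base contents like those of the mRNAs, with 35.8% (mt-Rnr1) and 35.4% (mt-Rnr2) G and C against 31.9% to 41.1% in the mRNAs. The longest run of A inside them is 5 and 7 bases. In the 7 mRNAs with enough counts to be tested the longest run is between 3 (mt-Nd6) and 8 (mt-Nd2). Windows of 50 bases shared with nuclear transcripts made up 0.0% of mt-Rnr1 and 1.0% of mt-Rnr2. Their last 60 bases are shown beside those of an mRNA with a complete stop codon, mt-Nd1, and of mt-Cytb, whose gene holds only the first base of its stop codon and which needs the added A bases to complete it. Capitals mark the bases of the stop codon. The rRNAs have none.
mt-Rnr1: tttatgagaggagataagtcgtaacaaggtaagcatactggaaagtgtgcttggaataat
mt-Rnr2: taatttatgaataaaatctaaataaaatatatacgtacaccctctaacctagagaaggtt
mt-Nd1: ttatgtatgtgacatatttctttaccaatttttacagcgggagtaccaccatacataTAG
mt-Cytb: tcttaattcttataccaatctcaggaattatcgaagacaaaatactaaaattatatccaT

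Since the rRNAs differ from the mRNAs in their tails, RNAs without poly(A) tails were read in the same libraries. The nuclear ribosomal RNA entry Rn18s-rs5 stood at 899.5, 1033 and 706 CPM in the thrombocytopenic and at 442, 472 and 458 CPM in the control libraries. It was higher in all 3 thrombocytopenic libraries (log2 fold change 0.94, SE 0.16; edgeR adjusted p = 0.00952), opposite to the mitochondrial rRNAs. The histone genes H1f2 and H2bc4, whose mRNAs mostly lack tails, were lower, at log2 fold changes of -0.38 and -0.81. H1f2 missed the threshold without thrombocytopenic replicate 1 (-0.27, edgeR adjusted p = 0.0882). Rn7sk, a small nuclear RNA, averaged 0.621 ± 0.401 CPM in the thrombocytopenic and 0.426 ± 0.292 CPM in the control libraries and was not called. Of 44 such entries found, 5 had enough counts to be tested, 1 higher and 2 lower (1 lower without thrombocytopenic replicate 1), where all genes gave 22.4% and 22.7%. The part of RNA selection in the rRNA difference was not tested.

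The mRNAs showed a small shift whose calls depended on the libraries kept and on the test used. They made up 0.688%, 0.721% and 0.685% of the counts in thrombocytopenic 1 to 3 and 0.697%, 0.591% and 0.640% in control 1 to 3. The groups overlapped through control 1 (difference of means 0.0553 percentage points; exact permutation p = 0.3, adjusted p = 0.4). With single libraries left out the difference ran from 0.0296, without control 2, to 0.0823, without control 1. Of the 7 tested mRNAs, 6 had a positive log2 fold change, 1 passed the test, higher, and 0 were lower, against 22.4% of all genes higher and 22.7% lower. Their median log2 fold change was 0.12.

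mt-Cytb, the mitochondrially encoded subunit of complex III, was the mRNA that passed. It stood at 1115, 1126 and 1111 CPM in thrombocytopenic 1 to 3 and at 1033, 919 and 974 CPM in control 1 to 3, without overlap. It rose by 0.20 on the log2 scale (SE 0.029; 1.15-fold; edgeR adjusted p = 2.5e-06). This separation is one that 25.2% of all genes tested had in the same direction.

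mt-Co1, the catalytic subunit of cytochrome c oxidase (complex IV), was the most abundant member. It stood at 2454, 2568 and 2438 CPM against 2459.8, 2066 and 2226 CPM. Control 1 lay among the thrombocytopenic libraries. The log2 fold change of 0.14 (SE 0.074; 95% interval -0.0014 to 0.29, from the SE) did not pass the test (edgeR adjusted p = 0.203). Without control 1 it passed, at 0.21 (edgeR adjusted p = 6.01e-08). With all libraries kept, mt-Co1 also passed by limma-voom (0.15, adjusted p = 0.000568) and by edgeR without its robust option (0.14, adjusted p = 0.00118).

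The complex I subunits of the heavy strand behaved like mt-Co1. mt-Nd1 stood at 1327, 1353 and 1289 CPM against 1371, 1178 and 1301 CPM (log2 fold change 0.04, SE 0.061, 95% interval -0.075 to 0.16). mt-Nd2 stood at 605, 639.5 and 582 CPM against 627, 523 and 573 CPM (0.09, SE 0.082). In both, control 1 was higher than 2 or more of the thrombocytopenic libraries. mt-Nd4 was at 431, 450.3 and 423 CPM against 427, 356 and 389 CPM (0.16, SE 0.075). mt-Nd5 was at 979, 1077 and 999 CPM against 1029, 855 and 925 CPM (0.12, SE 0.086). None of these 4 passed the test, with edgeR adjusted p between 0.171 (mt-Nd4) and 0.622 (mt-Nd1). Without control 1 all 4 were called higher, so that 6 of the tested mRNAs passed in place of 1. Without control 2 only mt-Cytb and mt-Nd4 passed. By limma-voom and by edgeR without its robust option mt-Nd4 and mt-Nd5 passed as well, and mt-Nd4 also passed without a filter on low counts.

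The heavy-strand mRNAs went up and down together from library to library. All 6 tested were lowest in control 2, and 5 of 6 were highest in thrombocytopenic 2, the exception being mt-Nd1. For the rRNAs control 2 was also the lowest control library, but it lay far above every thrombocytopenic library.

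**Figure D4:**
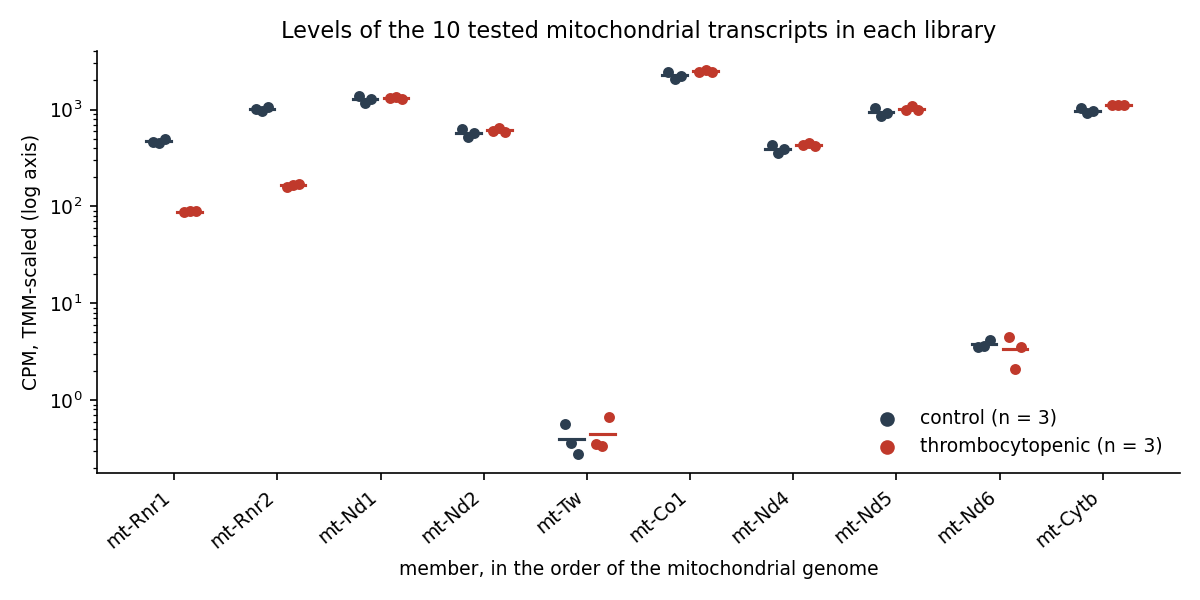
Levels of the 10 tested members in each library, in CPM on a log axis, in the order of the mitochondrial genome; points are libraries and bars group means (n = 3). The groups stand apart for mt-Rnr1 and mt-Rnr2, lie close but separate for mt-Cytb, and overlap for the other 7 members.

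**Figure D5:**
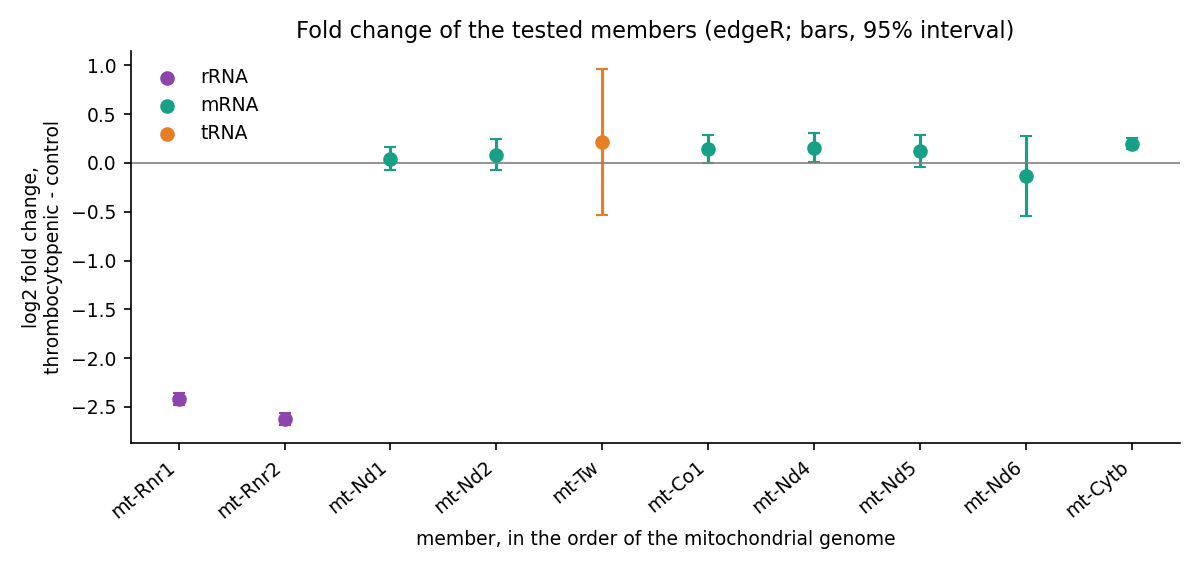
Log2 fold change, thrombocytopenic minus control, of the 10 tested members with 95% intervals from the SE of edgeR's test, colored by class. The rRNAs lie at -2.42 and -2.63, the heavy-strand mRNAs between 0.04 and 0.20, and mt-Nd6 and mt-Tw have intervals that span 0 widely.

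mt-Nd6, the complex I subunit encoded on the light strand, was far less abundant than the other tested mRNAs. It had 169, 63 and 127 counts in thrombocytopenic 1 to 3 and 89, 130 and 121 in control 1 to 3. Thrombocytopenic 1 was the highest library at 4.53 CPM and thrombocytopenic 2 the lowest at 2.11 CPM, so that the control group lay within the range of the other. The log2 fold change of -0.14 (SE 0.21, 95% interval -0.55 to 0.28) did not pass the test and became 0.09 without thrombocytopenic 2. The log2 ratio of mt-Nd6 to the heavy-strand mRNAs differed by -0.35 (exact permutation p = 0.6, adjusted p = 0.7), and by -0.60 without thrombocytopenic 1 and -0.023 without thrombocytopenic 2. mt-Nd6 overlaps mt-Nd5 on the other strand, and whether counting used strand is not given in the sources used here.

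Per length, the levels of the members fell in a clear order in the control group. In CPM per kilobase of gene (mean ± SD, n = 3), mt-Co1 was at 1457 ± 128 and mt-Nd1 at 1341 ± 102, with overlapping spreads. mt-Cytb followed at 852.5 ± 49.9. Next came mt-Rnr2 at 643 ± 30.9, mt-Nd2 at 553 ± 49.8, mt-Nd5 at 513 ± 48.1 and mt-Rnr1 at 495 ± 21.8, of which the last 3 had overlapping spreads. These spreads are between libraries. Within every control library mt-Co1 stood above mt-Nd1, and mt-Nd2 above mt-Nd5. mt-Nd4 was at 283 ± 25.7, and mt-Nd6 last at 7.32 ± 0.695.

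In the thrombocytopenic group the mRNAs kept this order, with mt-Co1 at 1609 ± 45.9, mt-Nd1 at 1382 ± 34.04, mt-Cytb at 977 ± 7.09, mt-Nd2 at 587 ± 27.7, mt-Nd5 at 558 ± 28.2 and mt-Nd4 at 316 ± 10.1 CPM per kilobase. The rRNAs, at 104.2 ± 2.86 (mt-Rnr2) and 92.7 ± 1.18 (mt-Rnr1), stood below all 6 tested heavy-strand mRNAs. mt-Nd6 remained the lowest, at 6.54 ± 2.34. mt-Co1 and mt-Nd4 share 51.1% and 62.2% of their windows with nuclear transcripts. Per kilobase of window starts not shared, mt-Co1 was at 3079 ± 271 CPM in the control group, far above mt-Nd1 at 1414 ± 107.6, to which it lay much closer per kilobase of gene. mt-Nd4 was at 778 ± 70.7 CPM in the control group, above mt-Nd5 at 571 ± 53.5 and mt-Nd2 at 632 ± 56.95, so the places of mt-Co1 and mt-Nd4 in the order depend on which length is used.

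The makeup of the mRNA pool shifted slightly. mt-Nd1 made up 18.9% ± 0.23 of the counts of the 7 tested mRNAs in the thrombocytopenic and 20.02% ± 0.315 in the control libraries, and mt-Cytb 15.99% ± 0.33 against 15.2% ± 0.355. Neither pair overlapped. As log2 ratios to all mRNAs, the complex I subunits in sum differed by -0.04, mt-Cytb by 0.07 and complex IV by 0.02. The complex I subunits did not shift together. Like mt-Nd1, mt-Nd2 made up less (8.71% against 8.95%), but mt-Nd4 made up more (6.22% against 6.09%), each without overlap. For mt-Nd5 and mt-Nd6 the groups overlapped. The complex IV value is in effect that of mt-Co1, since mt-Co2 had 1 count and mt-Co3 had 0. In complex I, mt-Nd3 and mt-Nd4l, with 5 and 0 counts, added next to nothing. Each ratio had groups that did not overlap (exact permutation p = 0.1, adjusted p = 0.14), and each difference was far smaller than that between rRNA and mRNA. These parts together hold all of the mRNA counts, as mt-Atp8 and mt-Atp6 had 0, so their shifts are not independent.

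The tRNAs were near the limit of detection in both groups. Of 22, 14 had no count in any library, 5 of them in the empty stretch and 9 elsewhere. The class summed to 49, 30 and 48 counts in thrombocytopenic 1 to 3 and to 35, 34 and 34 in control 1 to 3, or 1.22 ± 0.186 against 1.18 ± 0.232 CPM by library total (exact permutation p = 0.9, adjusted p = 0.9). The groups overlapped, and the sign of the difference changed when single libraries were left out. Mature tRNAs have no long poly(A) tail, and their annotated genes are short, at 59 to 75 bases.

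mt-Tw, the tRNA for tryptophan between mt-Nd2 and mt-Co1, was the tRNA with enough counts to be tested, and its whole gene of 67 bases is shown because no other tRNA passed the filter.
mt-Tw: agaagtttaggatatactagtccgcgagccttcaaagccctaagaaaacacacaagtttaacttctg

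mt-Tw had 13, 10 and 24 counts in thrombocytopenic 1 to 3 and 14, 13 and 8 in control 1 to 3. The libraries overlapped, with thrombocytopenic 3 highest and control 3 lowest in CPM (0.671 and 0.279). The log2 fold change was 0.21 (SE 0.38, 95% interval -0.54 to 0.97), which leaves a change as large as that of mt-Cytb undetectable at this depth. Next in counts over all libraries, and named after their values were seen, were mt-Tp with 37, mt-Tt with 31 and mt-Tm with 28.

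The nuclear genes that make and process these RNAs were read list by list. Of 26 tested genes of mitochondrial transcription and DNA replication, 3 were higher and 2 lower, with a median log2 fold change of 0.02, beside 22.4% higher and 22.7% lower among all genes. Mterf3, a regulator of mitochondrial transcription and ribosome assembly, was at 29.1 ± 1.29 CPM against 25.4 ± 0.534 CPM (log2 fold change 0.20). Slc25a36, a mitochondrial carrier of pyrimidine nucleotides, rose by 0.16. Ssbp1, which binds single-stranded mitochondrial DNA, was at 0.19 and missed the threshold without thrombocytopenic replicate 1 (0.13, edgeR adjusted p = 0.0992). Tk2, the mitochondrial thymidine kinase, was at -0.24 and missed it without control replicate 1 (-0.22, edgeR adjusted p = 0.0544). The core factors, chosen after their values were seen, were not called: thrombocytopenic and control libraries had 16.7 ± 0.527 and 16.2 ± 0.517 CPM of Polrmt, the polymerase, and 25.2 ± 2.56 and 27.7 ± 2.29 CPM of Tfam.

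Of 25 tested genes of mitochondrial RNA processing and decay, 4 were higher and 2 lower (median 0.03; all genes, 22.4% and 22.7%). Mtpap, the polymerase that adds the tails, rose from 28.5 ± 1.58 to 32.2 ± 0.491 CPM (log2 fold change 0.18). Pde12, a phosphodiesterase that removes poly(A) from mitochondrial RNA, rose from 30.97 ± 0.881 to 37.9 ± 1.86 CPM (0.30, edgeR adjusted p = 8.15e-07). Rexo2, an oligoribonuclease, rose by 0.17, and Grsf1, an RNA-binding protein of mitochondrial RNA granules, fell from 88.5 ± 0.722 to 74.8 ± 1.64 CPM (-0.24, edgeR adjusted p = 3.97e-08). The count of lower genes was 1 without thrombocytopenic replicate 3 or control replicate 3. Lrpprc, which stabilises the mRNAs, had 68.3 ± 0.663 and 66.8 ± 1.53 CPM in the thrombocytopenic and control libraries and was not called; it was chosen after its value was seen.

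Among 24 tested genes that modify mitochondrial rRNA or assemble the ribosome, 2 were higher and 4 lower (median 0.02; all genes, 22.4% and 22.7%). The pseudouridine synthase genes Rpusd3 and Trub2 were at -0.72 and -0.20. The assembly GTPase gene Mtg1 was at -0.26 and missed the threshold without thrombocytopenic replicate 3, control replicate 2 or control replicate 3. Without thrombocytopenic replicate 3 the count of lower genes was 2, and without thrombocytopenic replicate 2 or any 1 control library the count of higher genes was 1. All log2 fold changes in this list lay between -0.72 and 0.33, and the part of these genes in the rRNA difference was not tested.

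Genes that charge and modify the tRNAs changed in 4 of 28, 2 in each direction (median -0.03), where 45.1% of all genes changed, among them Yars2, the tyrosine synthetase, at 0.22, and Pars2, the proline synthetase, at -0.35. Pars2 missed the threshold without thrombocytopenic replicate 2 (-0.32, edgeR adjusted p = 0.0566). The count of lower genes was 1 without thrombocytopenic replicate 1 or control replicate 3, and that of higher genes 4 without control replicate 2. Of 14 translation factors, 2 were higher and 1 lower (median 0.01; all genes, 22.4% and 22.7%). The initiation factor gene Mtif2 rose by 0.20. Gfm1, an elongation factor gene, at 0.10, missed the threshold without any 1 library other than thrombocytopenic replicate 3. Oxa1l, at -0.11, missed it without thrombocytopenic replicates 1 or 3 or control replicates 1 or 3.

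Nuclear subunits of the respiratory chain, which assemble with the products of the mitochondrial mRNAs, were higher in 19 of 77 and lower in 1 (median 0.06), against 22.4% and 22.7% of all genes. Without thrombocytopenic replicate 1, 10 were higher. The count of lower genes was 2 without control replicate 2 and 0 without any of the other libraries but thrombocytopenic replicate 2. The largest of their changes in either direction was 0.19, in Ndufb3 of complex I, from 33.7 ± 1.49 to 38.6 ± 1.79 CPM. Cox7b and Cox6b1 of complex IV rose by 0.13 and 0.12, and Atp5j2 of ATP synthase by 0.15.

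Regulators of mitochondrial biogenesis changed in 12 of 15, 8 higher and 4 lower (2 lower without control replicate 3; median 0.11), where 45.1% of all genes changed. Pparg, a lipid-sensing nuclear receptor, went up from 5.63 ± 0.645 to 9.55 ± 0.406 CPM, a log2 fold change of 0.77. The transcription factor gene Yy1 rose by 0.27 and Pprc1, a coactivator of the PGC-1 family, by 0.24. The 4 lower genes, named after their values were seen, were Sirt3 and Sirt1, which encode deacetylases, at -0.68 and -0.22, the PGC-1 family coactivator gene Ppargc1b at -0.44 and the lysosomal transcription factor gene Tfeb at -0.38. Of 26 tested genes of mitophagy and mitochondrial dynamics, 8 were higher and 4 lower (median 0.03), beside 22.4% and 22.7% of all genes. Yme1l1, an inner-membrane protease, rose from 229 ± 8.19 to 279.6 ± 5.92 CPM (0.29), and the kinase gene Tbk1 rose by 0.15. The mitophagy receptor gene Bnip3 was at -0.24 and the autophagy adaptor gene Sqstm1 at -0.17.

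Genes that sense or clear mitochondrial and other nucleic acids were lower in 10 of 11, with a median of -0.26, where 22.7% of all genes were lower. Tlr9, the receptor for unmethylated DNA, fell from 53.3 ± 2.02 to 25.6 ± 1.04 CPM (log2 fold change -1.06). Dnase2a, a lysosomal nuclease gene, was at -0.51 and the RNA sensor gene Ifih1 at -0.30. Nlrp3, the inflammasome sensor gene, was the exception and rose from 473 ± 6.25 to 579 ± 9.14 CPM (0.29).

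Platelets carry mitochondria but no nucleus, so platelet RNA was read beside the classes. The platelet markers, with 19 of 20 detected and Gp1bb at 0, summed to 1838 to 1879 CPM in the thrombocytopenic and to 1600.0 to 1699.8 CPM in the control libraries, most of it from Pf4 at 1092 and 926 CPM. Of the 12 platelet markers with enough counts to be tested, 2 were higher, Pf4 and Ppbp, and 7 were lower, where 22.4% and 22.7% of all genes were. Among the lower ones were P2ry12, the platelet receptor for ADP, at 0.914 CPM against 8.42 CPM, Clec1b, a receptor for podoplanin, at 0.724 CPM against 3.53 CPM, Nrgn at 0.0178 CPM against 3.70 CPM and the integrin gene Itga2b at 0.342 CPM against 0.865 CPM. Gp9 had 0 counts against 41. The direction of the sum was thus that of its most abundant member, and most tested members went the other way.

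Markers of other cell types differed between the groups as well. The sums over the macrophage, dendritic cell, T and natural killer cell, erythroid, and basophil and mast cell lists were lower in every thrombocytopenic than in every control library, and the neutrophil sum was higher (exact permutation p = 0.1 each, adjusted p = 0.122 over 11 sums). Of 14 tested macrophage markers 11 were lower and 3 higher, where 22.7% and 22.4% of all genes were. The higher ones were Mrc1 (log2 fold change 0.77), Marco (0.31) and Adgre1 (0.28). Dendritic cell markers summed to 233 to 240.01 CPM against 315 to 329.6 CPM, most of it from Bst2 at 212 and 280 CPM. T and natural killer cell markers summed to 27.6 to 30.7 CPM against 46.0 to 48.5 CPM. Nearly all of this was Il7r, at 28.8 CPM against 46.0 CPM. Neutrophil markers summed to 515 to 523 CPM against 385 to 404 CPM, most of it from Mmp8 at 322 and 228 CPM. Of 8 tested neutrophil markers 3 were higher and 1, Ngp, was lower, where 22.4% and 22.7% of all genes were. Of 7 tested basophil and mast cell markers 6 were lower, where 22.7% of all genes were. Among the 6 were Mcpt8 at 0.118 CPM against 2.27 CPM and Prss34 at 0.0983 CPM against 2.64 CPM. The basophil and mast cell sum, 93.4 to 99.5 CPM against 101 to 104.1 CPM, was mostly Hdc, at 93.9 CPM against 91.7 CPM. Erythroid markers, with 4 of 10 at 0 in every library, summed to 0.0335 to 0.133 CPM against 2.61 to 2.98 CPM, led by the globin gene Hba-a1 with 0 counts against 180. B-cell markers overlapped in sum, at 14.3 to 16.4 CPM against 16.1 to 17.9 CPM, most of it from Ighm. Of 3 tested B-cell markers 1 was higher and 1 lower, where 22.4% and 22.7% of all genes were. Ighm was the higher one, at 12.7 CPM against 10.4 CPM, and Cd22 the lower one, at 1.04 CPM against 4.85 CPM. The part of these cell types in the rRNA difference was not tested.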

How the data were processed

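Raw counts per gene, 1 file per library, were used as deposited by the authors, with no further normalization. The submitters' processing notes name Salmon 1.5.2, featureCounts, Subread 2.0.1, STAR 2.7.9a and fastp 0.23.1. Which tool did what, with which build, annotation and counting options, is not given in the sources used here. Per the labels' protocols, oligo-dT beads and a stranded kit were used. Members and gene lists were chosen with earlier results of these data known. All 12488 genes kept by filterByExpr of edgeR (at a minimum count of 10 and a total of 15) were fitted, with TMM scaling (factors 0.9943 to 1.0022) and edgeR 4.0.16's robust quasi-likelihood test in R 4.3.3, with group as the only term, Benjamini-Hochberg adjustment over all genes and a threshold of 0.05. The SE is the absolute log2 fold change over the square root of F. The 95% intervals are 1.96 SE to each side, which can be too narrow for this test. Shares, ratios and marker sums were compared by exact permutation (two-sided, Benjamini-Hochberg within each family). Class shares and marker sums use library totals, single genes TMM-scaled totals. The text names every rRNA and mRNA, each tRNA that passed the filter, and up to 4 tested genes with the smallest p per nuclear list; the words rose and fell there rest on this test. The fit was tested on simulated data. Alternatives were other scalings and filters, DESeq2 1.42.0, limma-voom (limma 3.58.1), a fit without the robust option, a replicate block and each library left out. Sequences are from GENCODE M21; coordinates are not printed because the files' build is not given.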

Additional observations from a re-analysis of the deposited data

How the results depend on the processing

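Both rRNAs were called lower under all 16 alternatives, with log2 fold changes of -2.45 to -2.38 (mt-Rnr1) and -2.66 to -2.59 (mt-Rnr2), and mt-Cytb was called higher under all 16 (0.15 to 0.24). The count of mRNAs called higher was 1 in the fit reported, 2 without a filter on low counts, 4 with limma-voom, 4 without the robust option (mt-Co1, mt-Nd4, mt-Nd5 and mt-Cytb in both), and 1 to 6 when single libraries were left out (6 without control 1, 2 without control 2). No mRNA or tRNA was called lower under any of the 16. Over all nuclear lists 49 of 249 tested genes were higher and 32 lower, where 22.4% and 22.7% of all genes were. DESeq2 called 21 of the list genes lower, and leaving out libraries gave 37 to 53 higher and 24 to 30 lower. In single lists DESeq2 gave 0 lower in place of 2 for transcription and for tRNA synthetases, 1 in place of 2 for RNA processing, 1 higher and 2 lower in place of 2 and 4 for ribosome assembly, and 1 and 0 in place of 2 and 1 for translation factors. Without a filter on low counts translation factors gave 1 and 0 as well, and with upper quartile scaling 1 higher. Signs turned when single libraries were left out for mt-Nd1 (-0.018 to 0.092; negative without control 2), mt-Tw (-0.19 to 0.49; negative without thrombocytopenic 3), mt-Nd6 (-0.40 to 0.093; positive without thrombocytopenic 2) and Rn7sk (-0.064 to 1.03; negative without thrombocytopenic 2). The tRNA share then differed by -0.0803 to 0.151 CPM, and the log2 tRNA to mRNA ratio by -0.16 to 0.086. The cause was not tested. The replicate numbers did not pair the libraries (correlation of deviations -0.0892 to -0.0127). With a replicate block the fit called 2 rRNAs lower and 1 mRNA higher, and the lists gave 49 higher and 31 lower, with Oxa1l not called (adjusted p = 0.0655) and 0 respiratory chain genes lower; the rRNA to mRNA ratio had an exact p = 0.25, the smallest that 3 pairs allow. The tRNAs are limited by depth.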
